A study of Homo sapiens with 6 samples.

Results

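The enzymes that build the core structures of mucin-type O-glycans were examined in RKO, an established cell line from a human colon carcinoma, in 2 populations. The study set RKO C2 F3 against RKO C2, and asked which step of glycosylation is deficient in cells where u-PAR, the urokinase receptor, does not mature fully. RKO C2 F3 (F3 below) was obtained from RKO C2 by fluorescence-activated sorting of cells with low u-PAR, and RKO C2 (C2 below) is a clonal population of RKO. The labels call F3 a clonal population, while the design text calls it a population, and no treatment, transgene or time point is given for either. Both derive from 1 clone of 1 line. Each was represented by 3 arrays, numbered 1 to 3, and the labels do not say whether the 3 came from separate cultures, so that p-values measure the spread between these arrays, which may be technical.

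The members were C1GALT1, its chaperone C1GALT1C1, GCNT1, GCNT3, GCNT4 and B3GNT6, a set of 6 genes chosen by their role. Through the RefSeq accession in the probe set identifiers, 5 of the 6 were found among the 927 named genes, with 6 of the 1259 probe sets. B3GNT6 had 2 probe sets and the other genes 1 each. No probe set was matched to GCNT4, which was not analysed here. Since 26 probe sets without a symbol carry RefSeq accessions that the gene table does not list, a gene without a match may still be on the array. No filter on low values was applied, so all 6 probe sets entered the test. The 1259 probe sets are a selection that includes many genes of glycosylation, cytokines, receptors and ribosomal proteins. Percentiles and shares of all probe sets refer to this selection and not to all transcripts.

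A mucin-type O-glycan begins in the Golgi when a GalNAc-transferase links N-acetylgalactosamine (GalNAc) to serine or threonine. C1GALT1, the core 1 synthase or T-synthase, adds galactose to this GalNAc, and it folds only with the help of C1GALT1C1 (Cosmc), a chaperone of the endoplasmic reticulum. Without either protein the GalNAc stays bare or is sialylated, as the Tn and sialyl-Tn antigens of many carcinomas. GCNT1 and GCNT3 add an N-acetylglucosamine branch to core 1 and so form core 2, and GCNT3, the mucin-type enzyme, also forms core 4 from core 3. B3GNT6 adds N-acetylglucosamine to GalNAc in place of galactose and forms core 3, a structure of healthy colon mucus that is often lost in colorectal carcinoma. O-glycans are built apart from the N-glycans and the GPI anchor that u-PAR carries.

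None of the 6 probe sets passed the test between F3 and C2. Of all 1259 probe sets, 0.0794% were called by limma at an adjusted p under 0.05, a single probe set, for the GPI mannosyltransferase PIGB. Blocked on the replicate number the count was 2, PIGB and S100A10, and no probe set was called without F3 replicate 1, without C2 replicate 2 or without C2 replicate 3. At an unadjusted limma p under 0.05 the count was 1 of the 6, GCNT3, beside 5.40% of all probe sets. The arrays of the populations did not overlap for the same 1 of the 6, beside 10.3% of all probe sets. Of the 6 changes, 4 were negative and 2 positive, with a median of -0.017 on the log2 scale, beside a median of -0.0064 and 54.6% negative changes over all probe sets. The 95% intervals of the 6 changes reached at most from -0.28 to 0.22 on the log2 scale.

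**Figure D1:**
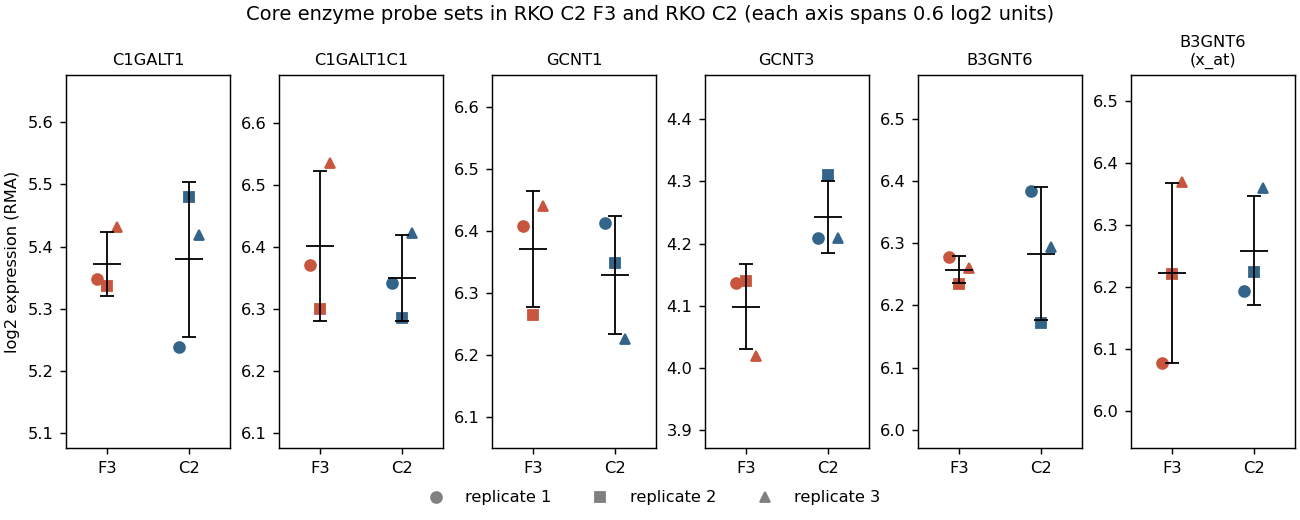
Log2 expression (RMA) of the 6 core enzyme probe sets on each array, F3 left and C2 right in each panel, with marker shapes for replicate numbers and black bars for mean ± SD (n = 3). Each vertical axis spans 0.6 log2 units. GCNT3 is the panel in which the 3 F3 arrays lie below the 3 C2 arrays; in the other panels the populations overlap.

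The arrays were alike in median log2 expression, from 5.48 to 5.51, and r across probe sets was 0.9981 to 0.9992 between any pair. Such an r follows mostly the level differences between probe sets. It does not show whether an array stood apart in single genes. C2 replicate 2 was at 9.61 for GALNT6, against 9.32 and 9.11 in C2 replicates 1 and 3. For ST6GALNAC4 it was at 10.68, against 11.34 and 11.13 in C2 replicates 1 and 3. Only 2 of 10 listed colon epithelial markers were measured, MUC2 at 5.15 ± 0.06 in F3 and 5.12 ± 0.06 in C2, and LGALS4 at 4.68 ± 0.14 in F3 and 4.74 ± 0.07 in C2 (log2, SD, n = 3 each), and without detection calls neither can be called present or absent. No listed marker of leukocytes (5 of 10 measured) or of fibroblasts and endothelium (6 of 8 measured) passed the test. The marker lists were chosen with earlier results of these data known, so the shares that follow are no test of a cell type. At an unadjusted limma p under 0.05 there were 3 of the 5 leukocyte markers, beside 5.40% of all probe sets. These were CD72 (log2 change 0.23), KLRC1 (-0.21) and SIGLEC5 (0.17). Their levels stood at the 24.3rd, 2.1st and 34.8th percentiles of all probe sets. Arrays did not overlap for the first 2, beside 10.3% of all probe sets. Of the 6 others, 1 had an unadjusted limma p under 0.05, ICAM2 (-0.20). The log2 of the summed unlogged signals of the leukocyte markers was 5.84 to 6.0001 in F3 and 5.80 to 5.85 in C2. The part of these markers in the results was not tested.

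The signals of the core enzymes lay between the lower and the upper quartile of all probe sets. Averaged over the 6 arrays, C1GALT1C1 had a log2 expression of 6.38, at the 61.6th percentile of all probe sets, GCNT1 one of 6.35 (61.3rd), B3GNT6 one of 6.27 (60.4th; 6.24 for its other probe set), C1GALT1 one of 5.38 (47.5th) and GCNT3 one of 4.17 (29.8th). The lower quartile of all probe sets was at 3.80, the median at 5.50 and the upper quartile at 7.77. Probes differ in how strongly they bind their transcripts, so this order of signals is not an order of transcript numbers, and no difference between members was tested. Without detection calls none of the members can be called present or absent from its percentile. ICAM2, the brightest of the 6 measured fibroblast and endothelial markers, stood at the 43.2nd.

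The 250 bases before the RefSeq start (GRCh38.p14) are shown for GCNT3, which had the lowest signal and the smallest p, and for the 2 core 1 genes. They are printed in the direction of transcription with each CpG in capitals, to let their base composition be compared.
C1GALT1: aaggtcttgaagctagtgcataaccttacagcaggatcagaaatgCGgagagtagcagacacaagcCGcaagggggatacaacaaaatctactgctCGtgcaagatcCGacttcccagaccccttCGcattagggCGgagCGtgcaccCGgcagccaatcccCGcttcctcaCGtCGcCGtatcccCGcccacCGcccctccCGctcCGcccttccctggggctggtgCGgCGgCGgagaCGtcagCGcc
C1GALT1C1: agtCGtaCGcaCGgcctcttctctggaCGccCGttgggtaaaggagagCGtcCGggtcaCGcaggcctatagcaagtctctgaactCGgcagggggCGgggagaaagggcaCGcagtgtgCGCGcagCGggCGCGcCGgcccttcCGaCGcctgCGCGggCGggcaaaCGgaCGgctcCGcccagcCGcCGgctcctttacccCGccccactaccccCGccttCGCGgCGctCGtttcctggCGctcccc
GCNT3: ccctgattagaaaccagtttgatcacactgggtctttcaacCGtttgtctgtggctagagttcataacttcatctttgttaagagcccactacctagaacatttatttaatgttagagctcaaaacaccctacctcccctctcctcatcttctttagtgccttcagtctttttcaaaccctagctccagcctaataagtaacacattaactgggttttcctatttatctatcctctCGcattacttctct
These lie at chr7:7182294-7182543 on the plus strand for C1GALT1, at chrX:120630055-120630304 on the minus strand for C1GALT1C1 and at chr15:59611533-59611782 on the plus strand for GCNT3. The C1GALT1C1 stretch held 34 CpGs and 71.6% G and C, that of C1GALT1 21 CpGs and 62.4%, and that of GCNT3 only 2 CpGs and 40.4%. Over 35116 RefSeq promoters of this length the medians were 11 CpGs and 58% G and C, and the CpG counts stood at the 94.2nd percentile for C1GALT1C1, the 72nd for C1GALT1 and the 22.9th for GCNT3. GC boxes, searched as GGGCGG on both strands, occurred 4 times in C1GALT1 and 4 times in C1GALT1C1 and not in GCNT3, while 42.6% of all promoters held at least 1. C1GALT1 held 1 CCAAT box (CCAAT, both strands; in 32% of all promoters), the other 2 genes none, and no TATAAA (both strands; in 10.7% of all promoters) was found in any of the 3. GCNT1 has 4 annotated starts, on chromosome 9, with 11, 18, 23 and 3 CpGs in the order of their positions. Their G and C shares were 48.8%, 54.4%, 68% and 38.8%. B3GNT6 lies on chromosome 11, and no promoter sequence was found for it. Whether base composition goes with signal was not tested. Letters that match a motif describe the sequence and do not show that a factor binds there.

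C1GALT1, the only enzyme that makes core 1, was nearly level between the populations. Its log2 expression was 5.35, 5.34 and 5.43 in F3 replicates 1, 2 and 3, against 5.24, 5.48 and 5.42 in C2 replicates 1, 2 and 3. C2 replicate 1 was the lowest of the 6 arrays and C2 replicate 2 the highest, so that all 3 F3 arrays lay within the range of C2. The means were 5.37 ± 0.05 in F3 and 5.38 ± 0.13 in C2 (SD, n = 3 each). The log2 change was -0.0075 (SE 0.072, 95% interval -0.17 to 0.16, limma adjusted p = 0.998), an expression ratio between 0.888 and 1.11. Its sign turned in 6 of 12 alternative settings, which included median centring and quantile normalization, so no direction is given for it.

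C1GALT1C1, on whose product active C1GALT1 depends, likewise showed no change past the test. It had log2 values of 6.37, 6.30 and 6.54 in F3, against 6.34, 6.29 and 6.42 in C2, in the order of replicates. Replicate 3 was the highest array of both populations and replicate 2 the lowest, and the populations overlapped. The log2 change was 0.052 (SE 0.073, 95% interval -0.12 to 0.22, limma adjusted p = 0.998), and the differences between same-numbered arrays were 0.028, 0.015 and 0.11, each positive. Without F3 replicate 3 it was -0.015. RefSeq also annotates C1GALT1C1L, a coding gene like C1GALT1C1, and pseudogenes of C1GALT1 and of GCNT1, and whether the probes bind their transcripts was not determined.

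The C1GALT1C1 signal exceeded that of C1GALT1 on the same array by 1.02, 0.96 and 1.10 log2 units in F3, and by 1.10, 0.81 and 1.00 in C2. Part of such a gap belongs to the probes, and the probe contribution is shared by all arrays. The mean gap was 1.03 ± 0.07 in F3 and 0.97 ± 0.15 in C2 (SD, n = 3 each), a difference of 0.059 that is smaller than the SD in either population. Between same-numbered arrays the gap differed by -0.081, 0.16 and 0.099 (F3 minus C2), with both signs.

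GCNT1, the core 2 enzyme with a wide distribution that includes leukocytes, had log2 values of 6.41, 6.27 and 6.44 in F3, against 6.41, 6.35 and 6.23 in C2. F3 replicate 2 was below 2 of the C2 arrays and F3 replicate 3 above all 3, so the populations overlapped. The log2 change was 0.042 (SE 0.071, 95% interval -0.12 to 0.20, limma adjusted p = 0.998). Same-numbered arrays differed by -0.0049, -0.084 and 0.21, so number 3 alone was positive, and without C2 replicate 3 the change was -0.0096.

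GCNT3, the branching enzyme of mucin-secreting epithelium, had the largest change of the 6 probe sets. Its log2 expression was 4.14, 4.14 and 4.02 in F3, against 4.21, 4.31 and 4.21 in C2. The 3 F3 arrays all lay below the 3 C2 arrays, with a gap of 0.070 between the nearest of them, about the SD within a population (0.069 in F3 and 0.058 in C2). The means were 4.10 ± 0.07 in F3 and 4.24 ± 0.06 in C2 (SD, n = 3 each), a log2 change of -0.14 (SE 0.059, 95% interval -0.28 to -0.0090). The unadjusted limma p was 0.039 and the adjusted p 0.867, so the change did not pass the test over all probe sets.

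In size the GCNT3 change stood at the 92nd percentile of absolute changes, which had a median of 0.047 and a 95th percentile of 0.17 over all probe sets. Of all probe sets, 6.51% had their 3 F3 arrays below their 3 C2 arrays, as GCNT3 did. The differences between same-numbered arrays were -0.072, -0.17 and -0.19. Blocked on the replicate number, limma gave an adjusted p of 0.531 for GCNT3, which was again the 1 of the 6 with an unadjusted p under 0.05, beside 8.02% of all probe sets. Over 12 alternative settings the sign stayed negative, but most of them could not have turned it. With no overlap between the populations, leaving out 1 array or weighting arrays keeps the sign. The replicate block, the filter on dim probe sets and robust eBayes leave the change as it is. The unadjusted limma p ran from 0.018 to 0.13 and was under 0.05 in 7. The change was -0.10 without F3 replicate 3 and -0.11 without C2 replicate 2. All 6 measured fibroblast and endothelial markers had negative changes, with a median of -0.052, beside 54.6% negative changes over all probe sets. The log2 of their summed unlogged signals, in which the brightest markers weigh most, was 6.58 to 6.6658 in F3 and 6.6745 to 6.75 in C2. LUM had the lowest mean of the 6 (2.30, the 0.4th percentile of all probe sets) and ICAM2 the highest (5.04, the 43.2nd). The mean of GCNT3 (4.17, the 29.8th) lay between these, and without detection calls GCNT3 cannot be called present or absent. The part of the 6 markers in the GCNT3 values was not tested.

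**Figure D2:**
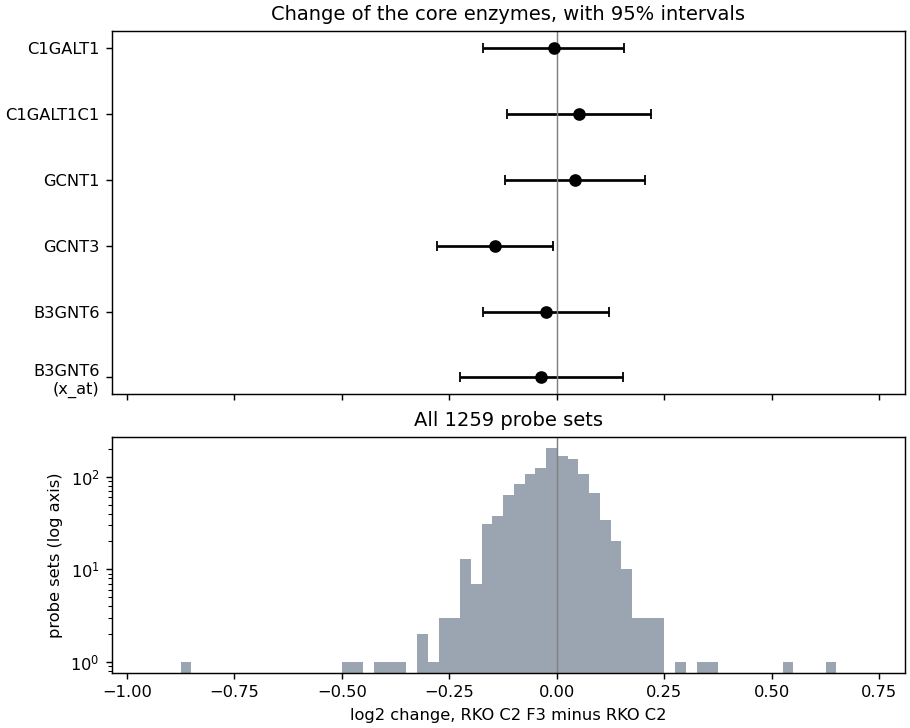
Above, log2 change (F3 minus C2) of each core enzyme probe set with its 95% interval from limma; below, the distribution of the changes of all 1259 probe sets, with counts on a log axis. The GCNT3 interval runs from -0.28 to -0.0090, and the intervals of the other 5 probe sets include 0.

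Within arrays, GCNT3 minus GCNT1 was -2.27, -2.13 and -2.42 log2 units in F3, against -2.20, -2.04 and -2.02 in C2. The F3 and C2 ranges of this difference overlapped, with means of -2.27 ± 0.15 in F3 and -2.09 ± 0.10 in C2 (SD, n = 3 each). Against C1GALT1, GCNT3 stood at -1.27 ± 0.12 in F3 and -1.14 ± 0.09 in C2, and GCNT1 at 1.00 ± 0.07 in F3 and 0.95 ± 0.20 in C2 (SD, n = 3 each; log2 signal minus that of C1GALT1). These ranges overlapped too. Between same-numbered arrays (F3 minus C2), GCNT3 relative to GCNT1 differed by -0.067, -0.087 and -0.40, and GCNT3 relative to C1GALT1 by -0.18, -0.027 and -0.20, negative in 3 of 3 pairs for both. Both reuse the GCNT3 values, whose own pair differences were all negative, so these are not separate observations. GCNT1 relative to C1GALT1 differed by -0.11, 0.060 and 0.20, with both signs. No test was run on these within-array differences.

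B3GNT6, the core 3 enzyme, was read by 2 probe sets, both with small negative changes that did not pass. The probe set with the higher mean had log2 values of 6.28, 6.23 and 6.26 in F3, against 6.38, 6.17 and 6.29 in C2. The F3 arrays lay close together, with an SD of 0.022, and within the range of the C2 arrays, whose SD was 0.11. Its log2 change was -0.026 (SE 0.064, 95% interval -0.17 to 0.12, limma adjusted p = 0.998).

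The other B3GNT6 probe set is marked _x_at, which in Affymetrix naming means that some probes may bind other transcripts. It had log2 values of 6.08, 6.22 and 6.37 in F3, against 6.19, 6.22 and 6.36 in C2. Replicate 1 was lowest and replicate 3 highest in both populations, an order that the first probe set did not show. The log2 change was -0.036 (SE 0.083, 95% interval -0.23 to 0.15, limma adjusted p = 0.998). Each probe set turned positive when certain single arrays were left out, C2 replicate 1 for the first (0.025), and F3 replicate 1 (0.036) or C2 replicate 3 (0.014) for the _x_at one. The B3GNT6 signal stood 0.89 ± 0.05 above that of C1GALT1 in F3 and 0.90 ± 0.23 above it in C2 (log2 difference within arrays, SD, n = 3 each), so the balance of core 3 to core 1 signals differed by less than the spread between arrays.

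**Figure D3:**
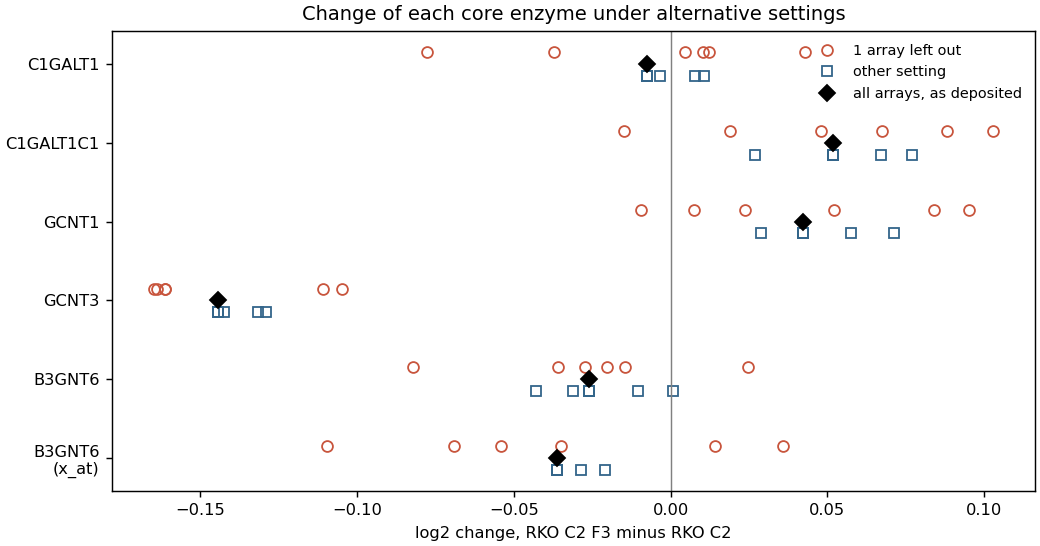
Log2 change (F3 minus C2) of each core enzyme probe set with all arrays as deposited (diamonds), with 1 array left out in turn (circles) and under other settings (squares). The GCNT3 points lie between -0.16 and -0.10, and each other probe set has points on both sides of 0.

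Genes with a like course over the arrays were sought by the mean absolute difference between profiles over the 6 arrays, each profile centred on its own mean. For GCNT3 the nearest were FGF1, a fibroblast growth factor (0.017), and MCOLN2, a mucolipin cation channel (0.018), with log2 changes of -0.12 and -0.16 that did not pass either. For C1GALT1 they were ALG2, a mannosyltransferase of the N-glycan precursor (0.018), and FZD9, a Wnt receptor (0.022). For C1GALT1C1 they were the adhesion molecule CD58 (0.025) and GALNT3, a GalNAc-transferase (0.028), and for GCNT1 the growth factors MSTN (0.024) and PDGFC (0.030). For B3GNT6 they were the chemokine receptor CCR8 and the integrin-linked kinase ILK (0.024 each), and for its _x_at probe set the actin-depolymerising factor DSTN (0.017) and the ribosomal protein RPL32 (0.026). The 2 probe sets of B3GNT6 thus shared no neighbour. With 6 arrays and differences this small, nothing follows from such likeness about the genes.

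The genes that act before and after the core enzymes also held no member past the test, which 0.0794% of all probe sets passed. Over all probe sets 54.6% of the changes were negative. Of 17 measured GalNAc-transferases (of 19 listed), which start the O-glycan, 0 rose and 0 fell, 12 changes were negative, and the median was -0.027. The smallest p in this list belonged to GALNT15, at 2.97 ± 0.04 in F3 and 3.12 ± 0.04 in C2, a log2 change of -0.15, and next to GALNT7, at 7.55 ± 0.10 in F3 and 7.68 ± 0.03 in C2, a change of -0.13 (SD, n = 3 each; limma adjusted p = 0.837 and 0.966). The changes ran from -0.21 for GALNT6 to 0.12 for GALNT14. All 10 listed genes of chain elongation were measured, none passed, and 8 of their changes were negative, with a median of -0.047 and a range from -0.078 for B4GALT3, a galactosyltransferase, to 0.016 for B4GALT2. B4GALT3 and A4GNT, which caps gastric core 2 branches (-0.076), had the smallest p.

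Enzymes that cap or decorate the chain, sialyltransferases, fucosyltransferases and sulfotransferases, were all 13 measured. Of these enzymes, 0 rose and 0 fell past the test, beside 0.0794% of all probe sets called. Their changes ran from -0.12 for ST3GAL1, which sialylates core 1 and so competes with core 2 branching, to 0.23 for ST6GALNAC4, which adds sialic acid to the GalNAc of sialylated core 1. FUT4, a fucosyltransferase of the Lewis x type, had the smallest p, at 8.42 ± 0.01 in F3 and 8.50 ± 0.04 in C2 (SD, n = 3 each), a log2 change of -0.080 (limma adjusted p = 0.966). ST6GALNAC4 came next, at 11.28 ± 0.15 in F3 and 11.05 ± 0.33 in C2 (SD, n = 3 each; adjusted p = 0.966). The median of this list was -0.046, with 7 negative changes, beside 54.6% negative changes over all probe sets.

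Genes that supply sugar donors to the Golgi (10 of 10 measured) had 0 members past the test in either direction, beside 0.0794% of all probe sets. They had 6 negative changes, beside 54.6% over all probe sets, and a median of -0.024. UAP1, which makes UDP-GlcNAc for the core 2 and core 3 branches, stood at a log2 difference of 0.17 (SE 0.072, limma adjusted p = 0.903) and its arrays overlapped. Among mucins and other O-glycan carriers (13 of 17 measured), 0 rose, 0 fell and 9 changes were positive, with a median of 0.027. MUC5B, a gel-forming mucin, led them at 5.61 ± 0.06 in F3 and 5.47 ± 0.03 in C2, a log2 change of 0.14, before MUC13, a transmembrane mucin, at 4.23 ± 0.12 in F3 and 4.13 ± 0.07 in C2, a change of 0.10 (SD, n = 3 each; limma adjusted p = 0.837 and 0.974).

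**Figure D4:**
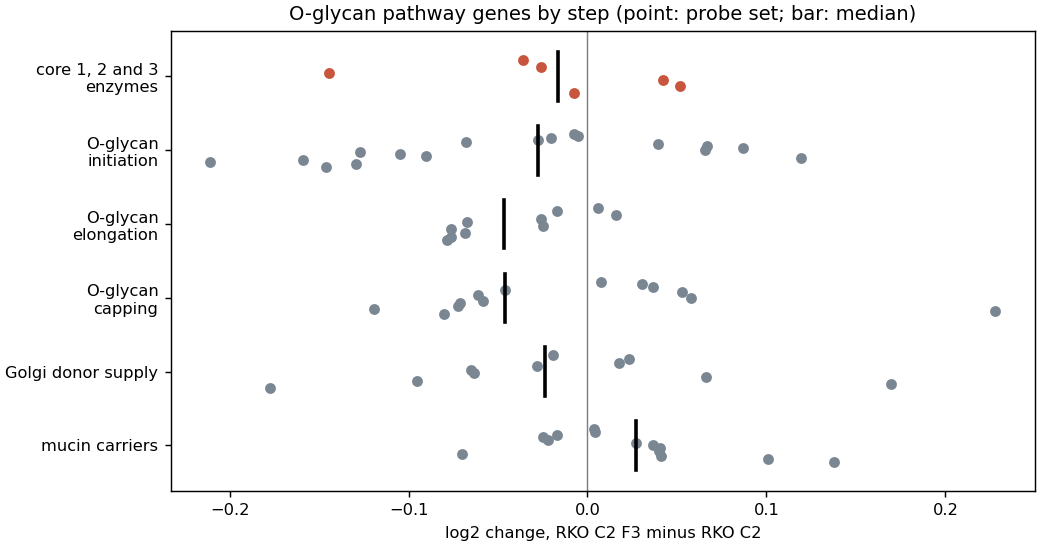
Log2 change (F3 minus C2) of the 6 core enzyme probe sets (top row, red) and of the measured genes of 5 lists of the O-glycan pathway (gray, 1 probe set a gene), each point a probe set and each black bar a median. The medians lie between -0.047 and 0.027, and no point passed the test.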

How the data were processed

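Total RNA was extracted with Trizol and labelled as biotinylated cRNA by the Affymetrix protocol, per the labels. The deposited table holds log2 values made by RMA, per the submitters' processing notes; the sources used here give neither its version nor the probe set definitions. RMA equalizes the arrays' distributions and compresses changes of dim probe sets, and no detection call comes with the values. Probe sets were named by RefSeq accession without version (GRCh38.p14 gene table): 1043 of 1259 matched 1 symbol, 216 kept their identifiers (26 of them RefSeq accessions absent from that table), and 0 matched several.

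F3 and C2 were compared in limma 3.58.1 (R 4.3.3; lmFit, eBayes), with two-sided p-values adjusted after Benjamini and Hochberg over the 1259 probe sets, at a threshold of 0.05. For a gene with several probe sets in a list, the one with the highest mean was used. The fit was tested on simulated data. Arrays of the same number deviated together from the means of their populations. Across probe sets r was 0.52, 0.18 and 0.26 for numbers 1, 2 and 3. Between arrays of unlike number r ran from -0.38 (F3 replicate 3 with C2 replicate 1) to 0.15 (F3 replicate 3 with C2 replicate 2). The latter is close to the r of number 2. The numbers, which also share a suffix in the sample titles, were therefore taken to pair the arrays. The fit without the block is the one reported. The precision is limited by the number of arrays.

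The members, lists and tests were chosen with earlier results of these data known. Members were all named; in each list the 2 smallest p were named, and for each member the 2 nearest profiles. A gene that this rule names is not reported here. GALNT6, GALNT14, B4GALT2 and ST3GAL1, at the ends of list ranges, and LUM, ICAM2, CD72, KLRC1, SIGLEC5, S100A10 and HAS2, were named after their values were seen. Alternatives were the replicate block, median centring, quantile normalization, a filter on probe sets under the 25th percentile, robust eBayes with an intensity trend, weights for arrays, each array left out, averaged probe sets of a gene and an adjusted p under 0.10. Promoter sequences are from RefSeq (GRCh38.p14), found for 4 of the 5 matched genes.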

Additional observations from a re-analysis of the deposited data

How the results depend on the processing

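None of the 6 core enzyme probe sets passed the adjusted threshold under any alternative tried, and the count of members past it was 0 in each. The number of all probe sets past it was 1 with all arrays, 2 with the replicate block, 2 at an adjusted p under 0.10 and 0 to 2 with 1 array left out in turn. PIGB was lost without F3 replicate 1, C2 replicate 2 or C2 replicate 3, leaving 0, and HAS2 was called beside it without F3 replicate 2, making 2; the cause was not tested. The block changed no call among the members, whose lowest limma adjusted p with it was 0.531. With the block the SE was smaller for each of the 6 probe sets. It went from 0.083 to 0.052 for the B3GNT6 _x_at probe set and from 0.071 to 0.069 for GCNT1. Of 73 values of member changes under alternatives, 61 kept the sign and 12 turned it. The replicate block, the filter on dim probe sets and robust eBayes leave each member's change as it is, so there the sign could not turn. The turned values reached 0.043, for C1GALT1 without C2 replicate 2, about the size of the GCNT1 change with all arrays (0.042). C1GALT1 turned to 0.0079 with median centring and 0.011 with quantile normalization, and B3GNT6 to 0.00082 with quantile normalization. With 1 array left out in turn C1GALT1 ran from -0.078 to 0.043, C1GALT1C1 from -0.015 to 0.10, GCNT1 from -0.0096 to 0.095, GCNT3 from -0.16 to -0.10, B3GNT6 from -0.082 to 0.025 and its _x_at probe set from -0.11 to 0.036. C1GALT1 was at 0.0045 without F3 replicate 1, 0.010 without F3 replicate 2, 0.043 without C2 replicate 2 and 0.012 without C2 replicate 3. The mean of the 2 B3GNT6 probe sets had a change of -0.031. Without detection calls, the signal over background is unknown.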
